A study of Mus musculus with 8 samples.

Results

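The transfer RNAs that carry glycine, glutamate and aspartate were followed in small RNA-seq of mouse liver cells with and without KAP1. The members were all listed sequences whose name marks a tRNA and whose amino acid code is Gly, Glu or Asp. They numbered 64 of the 379 tRNA sequences and 475 sequences in all in the Hepa 1-6 table, and 60 of 371 tRNA sequences and 467 sequences in the hepatocyte table. Both tables shared 58 members, and 66 members were in either. The other rows were tRNAs for other amino acids and small nucleolar RNAs (snoRNAs). The members fell into 7 anticodons, namely Gly-ACC, Gly-CCC, Gly-GCC, Gly-TCC, Glu-CTC, Glu-TTC and Asp-GTC.

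Hepa 1-6, a mouse hepatoma cell line, gave 1 control library and 1 Kap1 knockdown (KD) library. The KD cells received a pLKO lentiviral vector with an shRNA against Kap1, the control cells the vector labelled as control, which was empty according to the methods, and both were collected 5 days after transduction and had been selected with puromycin. Primary mouse hepatocytes, processed directly after purification, gave 1 wild-type (WT) library and 1 Kap1 knockout (KO) library. How the KO was made, and the strain and age of the animals, are not given in the sources used here. All 4 libraries were depleted of ribosomal RNA, with Ribo-zero for Hepa 1-6 cells and GeneRead for hepatocytes, so that cell source, kit and table cannot be told apart between the pairs. mRNA-seq of Hepa 1-6 cells (2 control and 2 KD samples) was used for genes that make, modify and charge tRNA.

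KAP1, encoded by Trim28, is a scaffold protein that KRAB zinc finger proteins bring to chromatin, where it is best known for silencing transposable elements. tRNA genes are short and are transcribed by RNA polymerase III from promoter elements inside the gene. Most tRNAs have many gene copies, often with identical sequence, and the anticodon in the middle of the molecule decides which codons it reads. Asp-GTC reads both aspartate codons, Gly-GCC reads the glycine codons that end in a pyrimidine, and Gly-CCC, Gly-TCC, Glu-CTC and Glu-TTC read codons that end in a purine. Fragments of Gly, Glu and Asp tRNAs are known to be abundant in small RNA preparations, in part from cleavage in the anticodon loop by angiogenin.

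The genes of these tRNAs were located in the mm9 genome by a search for sequences that fold into the cloverleaf, which gave 61 positions and 19 distinct sequences in the chromosomes searched. Of these positions, 46 lay between genes, 13 in introns and 2 in exons of GENCODE vM1 genes. A listed member was tied to a sequence only where the genome held as many positions of its chromosome, anticodon and length as the tables did and all of these had the same sequence, which resolved 42 of 66 members. The forms that the results turn on are shown as DNA, 5′ to 3′, with the anticodon in capitals, so that near copies can be told from distant ones.
Asp-GTC form A: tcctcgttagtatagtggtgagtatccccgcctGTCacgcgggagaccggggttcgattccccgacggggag
Asp-GTC form C: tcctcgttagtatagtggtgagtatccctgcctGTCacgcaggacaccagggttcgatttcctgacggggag
Glu-CTC form C: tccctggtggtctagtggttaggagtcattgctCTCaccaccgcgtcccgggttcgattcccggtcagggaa
Glu-CTC form D: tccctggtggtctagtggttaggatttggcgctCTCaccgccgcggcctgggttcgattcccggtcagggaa
Glu-TTC form A: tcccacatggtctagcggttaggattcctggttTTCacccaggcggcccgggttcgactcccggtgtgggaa
Glu-TTC form B: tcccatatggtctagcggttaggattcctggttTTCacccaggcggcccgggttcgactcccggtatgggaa
Glu-TTC form C: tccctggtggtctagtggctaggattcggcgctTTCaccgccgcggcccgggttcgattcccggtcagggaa
Gly-CCC form B: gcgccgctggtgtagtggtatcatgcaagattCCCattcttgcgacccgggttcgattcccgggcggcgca
Gly-CCC form D: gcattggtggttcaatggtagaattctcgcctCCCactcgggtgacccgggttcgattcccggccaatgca
Gly-GCC form A: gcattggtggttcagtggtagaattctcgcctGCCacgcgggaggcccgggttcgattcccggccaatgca
Gly-GCC form C: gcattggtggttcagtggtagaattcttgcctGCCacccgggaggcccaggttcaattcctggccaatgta
Gly-TCC form A: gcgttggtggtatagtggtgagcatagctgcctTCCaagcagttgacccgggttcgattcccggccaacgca

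Asp-GTC form A was found at 13 positions on 5 chromosomes, Gly-GCC form A at 8 positions, Gly-TCC form A at 7, Glu-TTC form A at 4 and Glu-TTC form B at 2. Glu-CTC form C lay between genes at chr12:43516062-43516133 (minus strand), and Glu-CTC form D in an intron of Hdgfrp2 at chr17:56231424-56231495 (minus strand). Gly-CCC form B lay between genes at chr6:86353887-86353957 (plus strand) and in an intron of Gm17480 at chr17:26012033-26012103 (plus strand). Glu-TTC form C lay between genes at chr3:96150598-96150669 (plus strand) and in an intron of Gm17575 at chr3:96191328-96191399 (minus strand). Asp-GTC form C lay in an intron of Aqr at chr2:113929103-113929174 (plus strand), Gly-CCC form D between genes at chr4:32317225-32317295 (plus strand) and Gly-GCC form C between genes at chr4:132670411-132670481 (minus strand).

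Likeness in sequence did not follow the anticodon alone. Glu-TTC form C differed from Glu-TTC form A at 15 bases and from Glu-CTC form D at 4. Glu-TTC forms A and B differed at 2 bases, C6T and G66A (positions from 1 at the 5′ end, the base of form A first), which face each other in the acceptor stem. Gly-CCC form B differed from Gly-CCC form D at 22 bases and from Gly-GCC form A at 24, whereas Gly-CCC form D and Gly-GCC form A differed at 5.

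The Hepa 1-6 table held 26249204 counts in control and 29223566 in KD cells, of which 1059106 (4.03%) and 653800 (2.24%) fell on tRNA sequences. The hepatocyte table held 3028467 counts in WT and 11006899 in KO cells, of which 46617 (1.54%) and 71380 (0.649%) fell on tRNA sequences. The tRNA share was thus lower in the KAP1-depleted library of both pairs, and the hepatocyte pair rested on far fewer tRNA counts. Each group is 1 library, so no difference has a replicate check, no p-value is given and the intervals reflect counting error alone. Without molecular identifiers repeated reads of a molecule cannot be recognised, so the intervals may be too narrow even for counting error. Less RNA per cell and fewer cells of a type cannot be told apart in such libraries. Neither small RNA table lists Kap1 itself, so that the depletion could not be checked in these libraries.

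Asp-GTC was the tRNA with the most counts among 52 anticodons in both Hepa 1-6 libraries. It took 289802 counts in control and 168082 in KD cells, which were 27.4% (95% Wilson interval 27.3 to 27.4) and 25.7% (25.6 to 25.8) of tRNA counts. In hepatocytes Asp-GTC was in place 10 in both libraries, with 1465 counts (3.14%, 2.99 to 3.30) in WT and 1568 (2.20%, 2.09 to 2.31) in KO cells. The KD or KO library was the lower of each pair, and the intervals did not overlap.

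Glu-CTC and Gly-CCC were the leading members in hepatocytes. Glu-CTC, in place 6, held 2012 WT counts (4.32% of tRNA counts, 4.14 to 4.50) and 4652 KO counts (6.52%, 6.34 to 6.70). Gly-CCC, in place 5, held 2175 WT counts (4.67%, 4.48 to 4.86) and 4729 KO counts (6.63%, 6.45 to 6.81). Both shares were higher in the KO library. In Hepa 1-6 cells Gly-CCC had 12503 control and 6923 KD counts (1.18% and 1.06%) and Glu-CTC 4191 and 2536 counts (0.396% and 0.388%).

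The remaining anticodons were smaller. Glu-TTC had 923 control and 356 KD counts in Hepa 1-6 cells (0.0871% and 0.0545% of tRNA counts) and 872 WT and 879 KO counts in hepatocytes (1.87% and 1.23%). Its share was lower in the depleted library of both pairs. Gly-GCC had 2607 control and 1114 KD counts (0.246% and 0.170%) and 368 WT and 593 KO counts (0.789% and 0.831%). Gly-TCC had 166 control, 71 KD, 8 WT and 19 KO counts, and Gly-ACC, the only member of its kind, had 65, 22, 10 and 6. All members together made up 29.3% of the tRNA counts in control, 27.4% in KD, 14.8% in WT and 17.4% in KO cells.

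**Figure D1:**
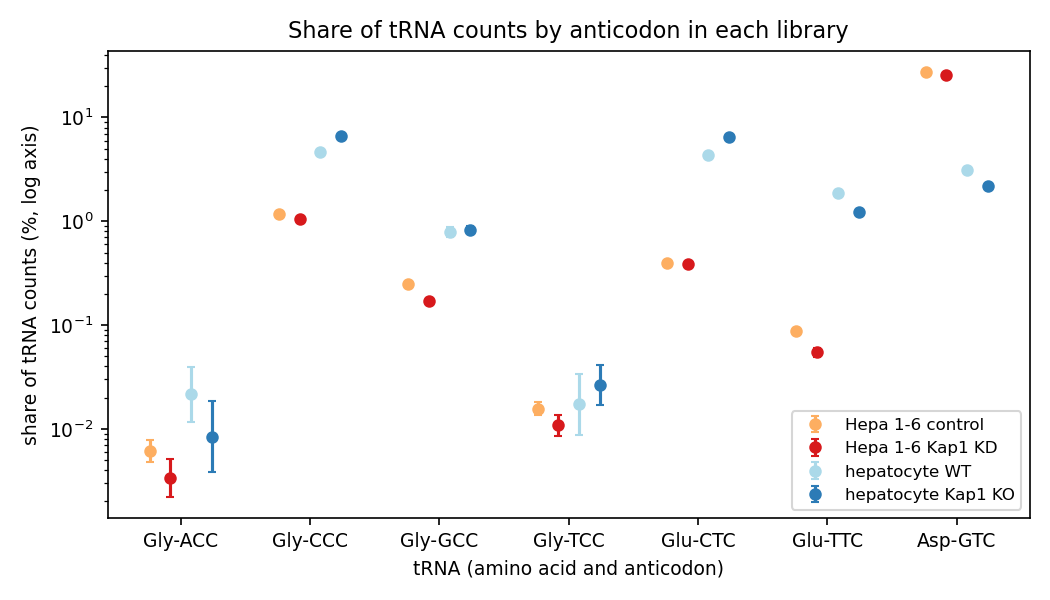
The share of all tRNA counts in percent (log axis) is plotted for each anticodon in the 4 libraries, with 95% Wilson intervals that cover counting error only. Asp-GTC stands at 27.4% and 25.7% in Hepa 1-6 cells against 3.14% and 2.20% in hepatocytes, while Glu-CTC and Gly-CCC stand higher in the KO than in the WT library.

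The Asp-GTC counts of Hepa 1-6 cells came almost wholly from 1 listed sequence. chr13.tRNA981-AspGTC held 267900 control and 154893 KD counts, 92.4% and 92.2% of the Asp-GTC counts. In hepatocytes it held 288 WT and 44 KO counts. There chr10.tRNA856-AspGTC led with 1031 WT and 1347 KO counts, 70.4% and 85.9% of the Asp-GTC counts, beside 829 control and 476 KD counts in Hepa 1-6 cells. With chr13.tRNA981-AspGTC set aside, Asp-GTC made up 2.77% and 2.64% of the other tRNA counts in control and KD cells. In WT and KO cells it made up 2.54% and 2.14%. These similar shares came from different sequences. Of the 21902 control counts left, chr5.tRNA1314-AspGTC held 11477 and chr1.tRNA707-AspGTC 8482, against 29 and 23 in WT cells. Of the 1177 WT counts left, chr10.tRNA856-AspGTC held 1031.

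Identical gene copies did not share counts in the same way in each family. The 10 Hepa 1-6 members tied to Asp-GTC form A ranged from 1 to 267900 control counts and from 0 to 154893 KD counts. Of the 5 form A genes on chromosome 1, chr1.tRNA707-AspGTC had 8482 control counts and the other four between 1 and 4. By contrast, the 3 members tied to Glu-TTC form A had 103 to 106 control and 42 to 49 KD counts, and the copies of Gly-CCC form B, chr6.tRNA317-GlyCCC and chr17.tRNA113-GlyCCC, had 949 and 948 control counts, 447 and 447 WT counts, and 1268 and 1267 KO counts. chr3.tRNA287-GlyCCC and chr3.tRNA755-GlyCCC had equal counts in every library (2601 in control, 1364 in KD, 352 in WT and 546 in KO). Members were tied to genes by taking the listed length as the gene plus flanks of 200 bases on both sides, and the tables do not give where in this stretch the reads lay. Reads inside identical genes cannot be assigned to a copy, and the rule that placed them is not given in the sources used here. Values of single copies are therefore uncertain. If a read was counted at more than 1 copy, intervals of sums over copies and of anticodon totals and shares are too narrow.

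**Figure D2:**
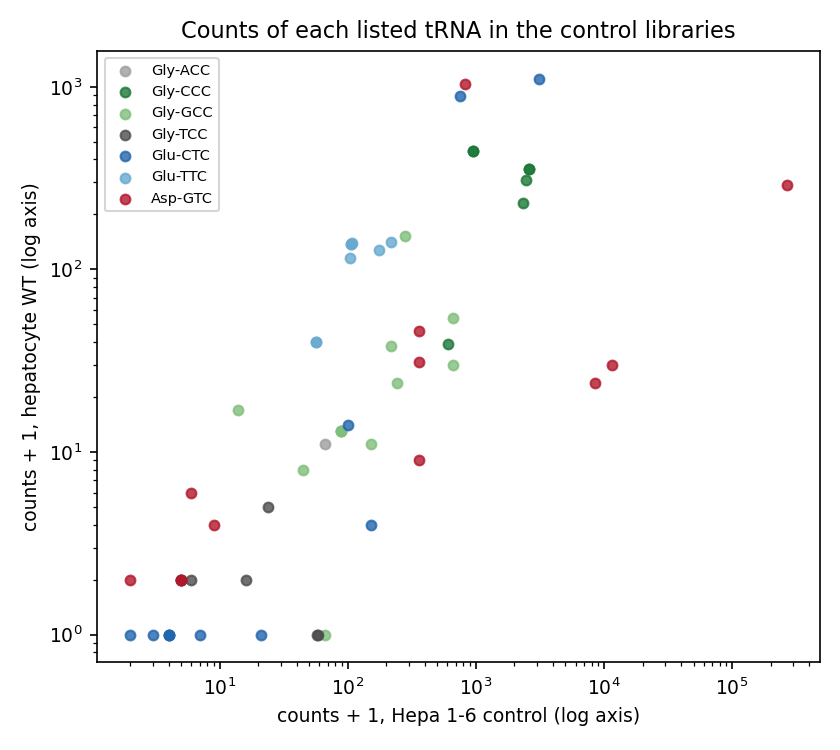
Each point is 1 of the 58 members in both tables, with its counts plus 1 in the Hepa 1-6 control library (x) and in the hepatocyte WT library (y), both on log axes and coloured by anticodon. chr13.tRNA981-AspGTC lies far to the right of all other members, at 267900 and 288 counts, and Glu-TTC sequences form a tight group.

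Within Hepa 1-6 cells, the median member was lower in KD than in control cells with each scaling tried, and the totals of Gly-GCC and Glu-TTC were lower than those of Asp-GTC, Gly-CCC and Glu-CTC relative to control. Ratios are given as the log2 of KD over control counts with 0.5 added, for the 40 members with at least 50 counts over the pair, and a ratio past 2-fold was counted as changed. Of all 339 such sequences 3.83% were past 2-fold higher and 2.65% past 2-fold lower. Of the 40 members, 0 were past 2-fold higher and 4 (10%) past 2-fold lower, against 5 of 206 other tRNA sequences (2.43%) lower. The median log2 ratio was -0.28 over the members (-1.09 with total counts, whose scaling shifts every log2 ratio by -0.81), -0.080 over other tRNA sequences and 0.022 over all sequences.

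The 4 members past 2-fold were all glycine tRNAs. chr1.tRNA1392-GlyGCC had 242 control and 53 KD counts, a log2 ratio of -1.53 (95% exact interval -1.997 to -1.11). chr8.tRNA560-GlyGCC had 215 and 51 counts, a log2 ratio of -1.41 (-1.90 to -0.98). These were the largest decreases among the 34 members with at least 100 counts, followed by chr14.tRNA359-GluTTC with 173 and 56 counts (-0.97, -1.44 to -0.53). The other members past 2-fold had few counts, chr3.tRNA878-GlyGCC with 44 and 12 and chr1.tRNA1004-GlyTCC with 58 and 17, and their intervals reached -0.28 and -0.32.

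The other Gly-GCC genes varied. The most counted, chr11.tRNA1819-GlyGCC, had 661 control and 349 KD counts (log2 ratio -0.27, -0.46 to -0.081), and chr4.tRNA1314-GlyGCC, the form C gene, had 277 and 179 (0.022, -0.26 to 0.30). chr8.tRNA886-GlyGCC had 66 and 53 counts (0.34, -0.22 to 0.88), among the 3 largest increases. The other named increases were chr5.tRNA1316-AspGTC with 356 control and 399 KD counts (0.82, 0.61 to 1.03) and chr7.tRNA967-GluCTC with 99 and 110 (0.80, 0.40 to 1.21), both short of 2-fold, and with scaling to total counts chr7.tRNA967-GluCTC and chr8.tRNA886-GlyGCC lay below 0. These intervals of chr5.tRNA1316-AspGTC and chr7.tRNA967-GluCTC lay above 0, that of chr8.tRNA886-GlyGCC did not.

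The Asp-GTC sequences with the most counts were lower by small amounts. chr13.tRNA981-AspGTC had a log2 ratio of -0.14 (-0.15 to -0.13) and chr5.tRNA1314-AspGTC, with 11477 and 6549 counts, -0.16 (-0.20 to -0.11). chr5.tRNA1316-AspGTC stood 0.97 above chr5.tRNA1314-AspGTC on the log2 scale (exact interval of the difference 0.76 to 1.19), a value that needs no scaling. In hepatocytes the same difference was 2.30 (1.04 to 3.74), from 30 WT and 53 KO counts against 29 and 10. All 8 Glu-TTC sequences had negative ratios, from chr14.tRNA359-GluTTC at -0.97 to chr13.tRNA105-GluTTC at -0.41, and the most counted, chr1.tRNA1547-GluTTC, had 217 control and 74 KD counts (-0.89, -1.30 to -0.51). The Glu-CTC gene with the most counts, chr12.tRNA886-GluCTC, had 3138 and 1895 (-0.077, -0.16 to 0.0059), and chr11.tRNA1824-GlyTCC, which led Gly-TCC, had 57 and 26 (-0.47, -1.21 to 0.21).

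In hepatocytes, the anticodon totals were split, with Gly-CCC and Glu-CTC higher and Glu-TTC and Asp-GTC lower in KO than in WT cells on the TMM scale; with scaling to total counts all of these were lower. Of all 261 sequences with at least 50 counts, 18.4% were past 2-fold higher and 15.7% past 2-fold lower. Of 26 members, 0 were past 2-fold higher and 6 (23.1%) lower, a share close to the 23.6% of 140 other tRNA sequences. Of those other tRNA sequences 7.86% were past 2-fold higher. The members' median log2 ratio was 0.049, against -0.55 over other tRNA sequences and -0.022 over all sequences. With scaling to total counts, which shifts every log2 ratio by -1.165, the members' median was -1.12 and each anticodon total was lower in KO cells.

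Of the 6 members past 2-fold, chr13.tRNA981-AspGTC fell the most. It had 288 WT and 44 KO counts, a log2 ratio of -3.39 (-3.90 to -2.95). Below the minimum of 50 counts, chr5.tRNA1314-AspGTC had 29 and 10 (-2.19, -3.43 to -1.16) and chr1.tRNA707-AspGTC 23 and 15 (-1.30, -2.36 to -0.31). The intervals of the other Asp-GTC members below the minimum held 0. Asp-GTC form A, mostly chr13.tRNA981-AspGTC, had 317 and 63 counts, -2.95 (-3.37 to -2.56) relative to other tRNA. chr10.tRNA856-AspGTC had 1031 and 1347 counts (-0.31, -0.43 to -0.19), and chr13.tRNA981-AspGTC lay below it by -3.08 on the log2 scale (-3.60 to -2.62), whereas in Hepa 1-6 cells the same difference was 0.0093 (-0.15 to 0.18). chr11.tRNA1819-GlyGCC had 53 and 16 counts (-2.39, -3.33 to -1.60), while the most counted Gly-GCC gene, chr4.tRNA1314-GlyGCC, had 152 and 265 (0.10, -0.19 to 0.40). The difference between these Gly-GCC genes was -2.50 (-3.48 to -1.64) in hepatocytes and -0.29 (-0.63 to 0.048) in Hepa 1-6 cells.

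The other 4 members past 2-fold were Glu-TTC genes, at log2 ratios of -1.005 to -1.04, and lay just inside the limit. chr13.tRNA105-GluTTC had 114 WT and 90 KO counts (-1.04, -1.45 to -0.63) and chr9.tRNA961-GluTTC 137 and 109 (-1.03, -1.40 to -0.65), the largest decreases after chr13.tRNA981-AspGTC among the 22 members with at least 100 counts. chr7.tRNA337-GluTTC, of the same form A, lay just outside with 137 and 111 counts (-0.9995), and chr14.tRNA359-GluTTC had 127 and 113 (-0.86, -1.24 to -0.49). chr1.tRNA1547-GluTTC, the form B gene, had 140 and 113 counts (-1.005, -1.38 to -0.64).

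The largest increases in KO hepatocytes on the TMM scale were short of 2-fold and lay below 0 with scaling to total counts. chr3.tRNA286-GluTTC and chr3.tRNA754-GluTTC, the copies of Glu-TTC form C, both had 39 WT and 116 KO counts (log2 ratio 0.86, 0.34 to 1.44), and since their counts were equal they are not independent values. chr6.tRNA317-GlyCCC had 447 and 1268 (0.81, 0.65 to 0.97), with the same caution for its copy. chr12.tRNA886-GluCTC had 1109 and 2395 counts (0.41, 0.31 to 0.52) and chr17.tRNA720-GluCTC 887 and 2211 (0.62, 0.51 to 0.73). On the TMM scale all of these intervals lay above 0.

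**Figure D3:**
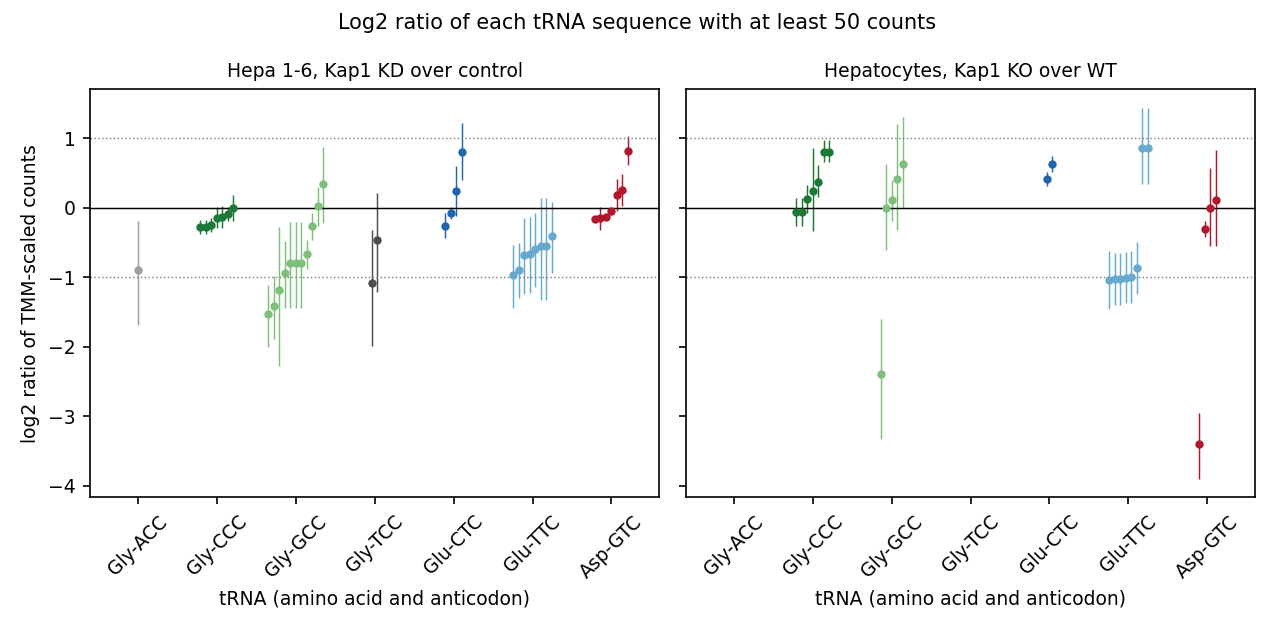
Log2 ratios of TMM-scaled counts are plotted by anticodon for the 40 members in Hepa 1-6 cells (left) and 26 in hepatocytes (right) with at least 50 counts, with 95% exact intervals for counting error and dotted lines at 2-fold. On the left, Gly-GCC reaches -1.53, and on the right Glu-TTC falls into a group near -1.0 and a pair at 0.86, with chr13.tRNA981-AspGTC at -3.39.

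Set against all other tRNA counts of the same library, a measure that needs no scaling between libraries, Glu-TTC was lower in the depleted library of both pairs. Its log2 ratio relative to other tRNA was -0.68 (exact interval -0.86 to -0.50) in Hepa 1-6 cells and -0.61 (-0.75 to -0.47) in hepatocytes. Asp-GTC was at -0.12 (-0.13 to -0.11) and -0.53 (-0.64 to -0.43), and without chr13.tRNA981-AspGTC at -0.068 (-0.10 to -0.037) and -0.26 (-0.37 to -0.14). Gly-CCC was at -0.16 (-0.20 to -0.12) in Hepa 1-6 cells but 0.54 (0.46 to 0.61) in hepatocytes, and Glu-CTC at -0.029 (-0.10 to 0.043) and 0.63 (0.55 to 0.71). Gly-GCC was at -0.53 (-0.63 to -0.43) and 0.074 (-0.12 to 0.27), and Gly-TCC at -0.52 (-0.95 to -0.12) and 0.58 (-0.63 to 2.03). Whether any of these values differs between cell sources was not tested.

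Anticodons with at least 50 counts were placed by their log2 ratio, from the highest. In hepatocytes, Glu-CTC was in place 5, Gly-CCC in 6, Gly-GCC in 12, Asp-GTC in 28 and Glu-TTC in 32 of 47. The median anticodon stood at -0.52, so that Asp-GTC (-0.60) and Glu-TTC (-0.69) lay not far below it. In Hepa 1-6 cells, Gly-ACC, Glu-TTC, Gly-GCC and Gly-TCC were in places 49, 47, 45 and 44 of 49. Glu-CTC, Asp-GTC and Gly-CCC were in places 28, 31 and 35 of these, and the median anticodon stood at -0.059. Gly-ACC rested on 87 counts there. Across the 26 members with enough counts in both pairs, 12 were lower in both, 2 higher in both, 11 lower in Hepa 1-6 and higher in hepatocytes, and 1 the reverse. Pearson's r between the log2 ratios of the pairs was 0.057 across these members, which share reads and gene copies and are not independent.

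Within an anticodon, some genes of different sequence differed in their ratios in hepatocytes, while Glu-TTC forms A and B lay close together. Glu-TTC form A, summed over 3 members, had 388 WT and 310 KO counts, -0.94 (-1.17 to -0.72) relative to other tRNA. Glu-TTC form C, summed over 2 members, had 78 and 232 counts, 0.95 (0.58 to 1.35). These 2 members had equal counts and may hold the same reads, so this interval may be too narrow. On the TMM scale 1 of them alone had an interval of 0.34 to 1.44. chr3.tRNA286-GluTTC of form C lay above chr9.tRNA961-GluTTC of form A by 1.89 on the log2 scale (1.24 to 2.58), against 0.11 (-0.84 to 1.02) in Hepa 1-6 cells. Glu-CTC form D was also higher in hepatocytes, at 0.72 (0.61 to 0.84) relative to other tRNA. On this measure in Hepa 1-6 cells Glu-TTC form C was at -0.52 (-1.05 to -0.026), near form A at -0.54 (-0.85 to -0.25). Glu-CTC form D was at -0.21 (-0.39 to -0.037) there. Whether these ratios go with likeness in sequence was not tested.

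Gly-CCC showed a smaller gap of the same kind. Gly-CCC form B had 894 WT and 2535 KO counts over its copies, 0.91 (0.80 to 1.03) relative to other tRNA. Its copies had nearly equal counts, so this interval may also be too narrow. Gly-CCC form D had 231 and 486 counts, 0.46 (0.23 to 0.69). chr6.tRNA317-GlyCCC of form B lay above chr4.tRNA67-GlyCCC of form D by 0.43 (0.15 to 0.71) in hepatocytes and by -0.042 (-0.22 to 0.14) in Hepa 1-6 cells. For Glu-CTC, chr17.tRNA720-GluCTC of form D lay above chr12.tRNA886-GluCTC of form C by 0.21 (0.053 to 0.36) in hepatocytes and by -0.18 (-0.38 to 0.014) in Hepa 1-6 cells. In all these comparisons between forms the Hepa 1-6 interval held 0 and the hepatocyte interval did not, the genes compared were chosen after their values were seen, and whether the cell sources differ in these gaps was not tested. Genes of the same sequence could lie farther apart. Of the Gly-GCC form A genes, chr13.tRNA110-GlyGCC had 29 WT and 73 KO counts, a log2 ratio of 0.62 (-0.0042 to 1.31), and chr11.tRNA1819-GlyGCC lay below it by -3.01 (-4.18 to -1.97) in hepatocytes and above it by 0.40 (0.12 to 0.69) in Hepa 1-6 cells, also a pair chosen after its values were seen.

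**Figure D4:**
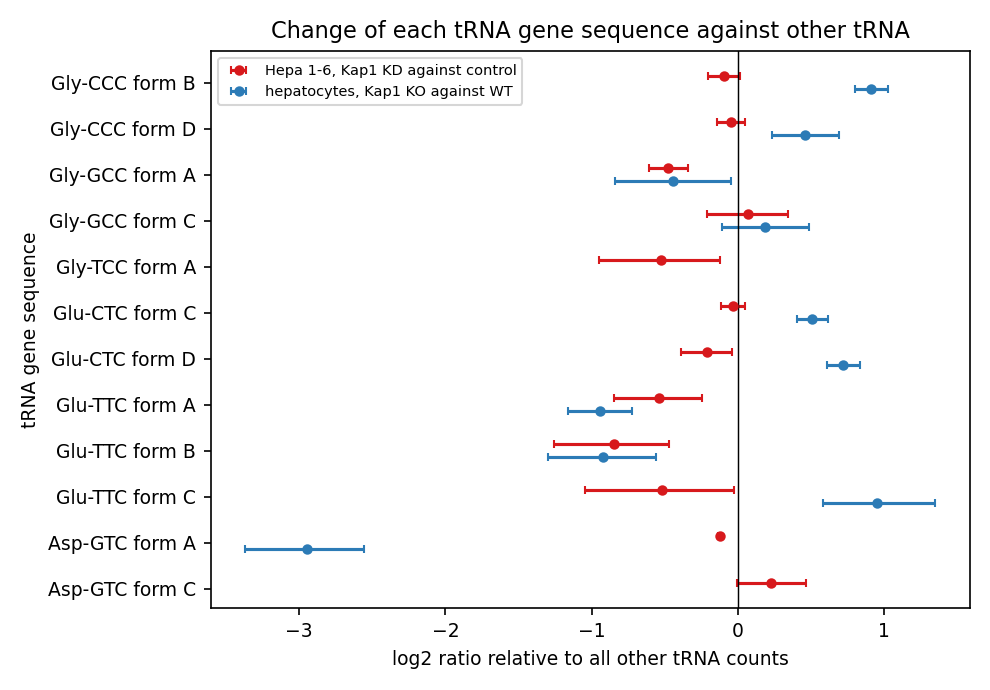
Log2 ratios relative to all other tRNA counts are plotted for the gene sequences printed above that had at least 50 counts over a pair. Exact intervals are for counting error and are too narrow where summed copies hold the same reads. In hepatocytes (blue) Glu-TTC forms A and B lie at -0.94 and -0.92 and form C at 0.95, while in Hepa 1-6 cells (red) the 3 forms lie at -0.54, -0.85 and -0.52.

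Genes that make, process, modify and charge these tRNAs were then read in the mRNA-seq of Hepa 1-6 cells. Trim28 had 4512 and 3692 counts in the KD samples and 25400 and 28506 in the controls, so that the groups did not overlap, with a log2 fold change of -2.48 ± 0.25 (SE). Of 14142 genes tested with edgeR's quasi-likelihood test, 0% passed a 1.5-fold change and an adjusted p under 0.05. Trim28 itself did not pass (adjusted p = 0.9999 with edgeR and Benjamini-Hochberg adjustment, and 0.062 without the filter on low counts). It passed with DESeq2 (adjusted p = 2.57e-10) and with edgeR without each replicate in turn (adjusted p of 5.61e-08 to 0.000584), so a gene that misses these thresholds is not shown to be unaltered. Hepatocyte markers in these cells were mixed, with Alb at 416 to 1642, Afp at 420 to 746 and Hnf4a at 87.5 to 201 CPM (counts scaled to library size), Trf at 6.76 to 12.04, and Apoa1 and Ttr at or below 0.42. Of the markers of other cells, Ptprc, Pecam1 and Cdh5 were at or below 0.26, Col1a1 at 0.60 to 1.43 and the fibroblast gene Dcn at 1158 to 1766.

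Of 61 genes in 5 lists, 60 were tested and 0 were called. Of these 60, 0 had an unadjusted p under 0.05, against 185 of all 14142 tested genes (1.31%). At so low a share, 0 of 60 does not set the lists apart from all genes. The list for transcription by RNA polymerase III had a median log2 fold change of -0.0075 over 23 genes, processing and export 0.0078 over 18, modification of these tRNAs 0.0070 over 12, charging -0.089 over 5 and cleavage by angiogenin -0.10 over 2. The median over all tested genes was -0.016. Log2 fold changes in the lists ranged from -0.29 to 0.44, and KD and control samples did not overlap in 12 of 60 list genes (20%) against 20.3% of all tested genes.

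The charging enzymes had high counts and small changes. Gars, the glycyl-tRNA synthetase, had 751 and 635 CPM in KD and 754 and 719 in control samples (log2 fold change -0.089 ± 0.18). Eprs, which charges glutamate and proline tRNAs, had 411 and 313 against 427 and 313 (-0.032 ± 0.25), and Dars, the aspartyl-tRNA synthetase, 147 and 113 against 167 and 119 (-0.14 ± 0.25). KD and control values overlapped in each. Between same-numbered samples, a pairing that is partly inferred, the KD value was the lower in each, for Eprs only just in sample 2 (312.7 against 313.2). No list gene was called with this pairing as a block.

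Modifying enzymes of these tRNAs were lower in level. Qtrt1, a subunit of the enzyme that places queuine in the Asp anticodon, was at -0.025 ± 0.22, Trdmt1, which methylates Asp, Gly and Val tRNA, at -0.18 ± 0.40, and Elp3, the catalytic subunit of Elongator, which modifies the wobble uridine of Glu-TTC among others, at 0.039 ± 0.22. Maf1, a repressor of RNA polymerase III, was at 0.19 ± 0.27, Brf1, a subunit of its initiation factor, at -0.10 ± 0.21, and Polr3a, its largest subunit, at -0.012 ± 0.18. Ssb, the La protein that binds new polymerase III transcripts, was at -0.26 ± 0.60, and Elac2, which trims the 3′ end of tRNA precursors, at 0.13 ± 0.21. Ang, the nuclease angiogenin, was at -0.23 ± 0.32, and its inhibitor Rnh1 at 0.027 ± 0.32. None of these genes was called.

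**Figure D5:**
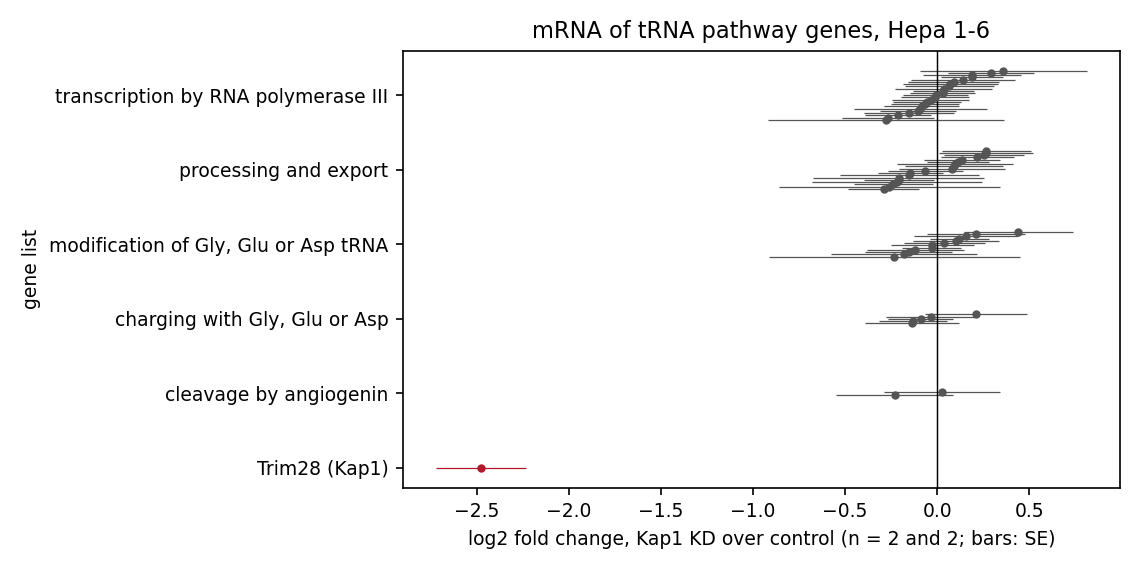
The log2 fold change of KD over control is plotted for the 60 tested list genes and Trim28 (2 samples a group, bars are SE). The list genes lie between -0.29 and 0.44, and Trim28 lies at -2.48.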

How the data were processed

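Small RNA-seq of 4 libraries and mRNA-seq of 4 samples were used, grouped by the sample labels. For small RNA-seq the authors deposited raw counts per tRNA or snoRNA sequence on mm9, beside a normalized signal and the same signal per kilobase, which were not used for results. The paired hepatocyte columns of a library were identical in all 467 rows and were counted once. For mRNA-seq the authors deposited counts per Ensembl gene from TopHat2 2.0.11 and HTSeq 0.6.1 (submitters' processing notes), with 1 alignment kept per read; the tools for the small RNA counts are not given in the sources used here.

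Counts of a pair were scaled by TMM (edgeR 4.0.16, R 4.3.3) over all rows and 0.5 was added. Intervals (95%) were Clopper-Pearson for ratios, Wilson for shares and conditional exact for differences of ratios (Python 3.11.15, scipy 1.17.1). mRNA counts (41566888 to 53605115 per sample) were tested with edgeR's quasi-likelihood F test after filterByExpr, with Benjamini-Hochberg adjustment over all tested genes; SE is the log2 fold change over the square root of F. DESeq2 1.42.0 was an alternative, as were other scalings, count minimums and pseudocounts. Samples labelled as separate are not stated to be separate cultures, so p-values may reflect technical spread. Both pipelines were tested on simulated data with independent samples. The simulated mRNA counts held no shared deviation of same-numbered samples, so they do not show how the fit performs on the real samples.

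tRNA genes were sought in mm9 as sequences of 71 or 72 bases with at least 16 of 17 stem pairs, or 15 with 80% identity to one of these; chromosome 18 was not searched, and not every sequence found is reported here. Named were every anticodon, its most counted sequence in each pair, the 3 largest increases and 3 largest decreases among sequences with at least 100 counts, and a fixed set of pathway genes; others were named after their values were seen. The members and lists were chosen with earlier results of these data known.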

Additional observations from a re-analysis of the deposited data

Results flagged for a closer look

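Gly-CCC and Glu-CTC went in opposite directions in the 2 pairs on the TMM scale, with counting intervals that excluded 0 in each. The log2 ratio of the Gly-CCC total was -0.20 (-0.24 to -0.16) in Hepa 1-6 cells and 0.42 (0.35 to 0.50) in hepatocytes. For the Glu-CTC total it was -0.074 (-0.15 to -0.0025) and 0.51 (0.44 to 0.59), and the Hepa 1-6 value relative to other tRNA counts had an interval that held 0. Of single sequences, chr17.tRNA720-GluCTC did the same, at -0.26 (-0.44 to -0.082) and 0.62 (0.51 to 0.73). With scaling to total counts all of these values were below 0 in both pairs. The difference between the pairs was not tested, since each group is 1 library and cell source, rRNA depletion kit and table cannot be told apart.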

How the results depend on the processing

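Counts of members past 2-fold moved with the count minimum and the scaling. In Hepa 1-6 cells, 4 were lower as reported, and 24 with total counts, 2 with 5 added to each count, 7 with a minimum of 10 counts, 2 with 200 and 10 with none; 0 were higher as reported, 1 with a minimum of 10 and 2 with none. In hepatocytes, 6 were lower as reported, and 16 with total counts, 2 with median-of-ratios, 2 with tRNA rows only and 12 with no minimum; 0 were higher as reported and 9 with no minimum. Fewer or more sequences enter with another minimum, and the 4 Glu-TTC sequences at the limit account for the fall to 2.

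Of the 14 anticodon totals, total-count scaling turned 3 from higher to lower (the hepatocyte totals of Gly-CCC, Glu-CTC and Gly-TCC), and median-of-ratios and tRNA-only scaling each turned 1 (hepatocyte Gly-GCC, at -0.0096 as reported). Medians over sequences gave 0.080 for Hepa 1-6 Glu-CTC. In alternatives chosen after seeing the data, hepatocyte Asp-GTC (-0.60) was -0.32 without chr13.tRNA981-AspGTC and -1.67 without chr10.tRNA856-AspGTC, and hepatocyte Gly-GCC was 0.18 without chr11.tRNA1819-GlyGCC. Another such alternative took equal counts within an anticodon once. Its largest shifts were in hepatocytes, Gly-CCC from 0.42 to 0.50 and Glu-TTC from -0.69 to -0.82.

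The number of tRNA pathway genes called was 0 with the replicate block, without the filter on low counts, with DESeq2 and without each replicate (0 to 0). Over all genes the replicate block called 631, DESeq2 3 and the fits without a replicate 3 to 65. In the block fit Trim28 passed, and 23 of 60 list genes had an unadjusted p under 0.05 against 0 as reported; these 38.3% of list genes stood beside 32.7% of all genes. The labels number only 1 sample of each group, so the pairing is partly inferred; same-numbered samples deviated together (r = 0.80 across genes).

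With 1 library a group no replicate spread is known. In hepatocytes, Gly-TCC and Gly-ACC held 27 and 16 counts over the pair, which sets wide intervals.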

Other observations

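Asp-GTC, Gly-TCC and Gly-GCC tRNA genes lay near each other on chromosome 1, at chr1:172967160-173032958. This stretch held 5 Asp-GTC, 5 Gly-TCC and 4 Gly-GCC genes, and the Asp-GTC genes had 1 shared sequence, as did the Gly-TCC genes. Other tRNA genes in this stretch are not described here. The 5 Asp-GTC members tied to it summed to 8495 control, 5211 KD, 26 WT and 16 KO counts. In control and KD cells nearly all of these counts came from chr1.tRNA707-AspGTC. The 5 Gly-TCC members summed to 86, 29, 4 and 9 counts, fewer than the Asp-GTC members in each library.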
